A study of Mus musculus with 4 samples.

Results

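The S100 genes encode small calcium-binding proteins, and 10 of them were followed in MC38 cells, a mouse colon carcinoma line. They are S100a1, S100a3, S100a4, S100a5, S100a6, S100a10, S100a11, S100a13, S100a16 and S100b, of 26322 genes listed in the table. The members were selected on their symbols and with these libraries already known, since the low values of S100a4 in CbfbKO cells drew attention to the family. Their differences between the groups are therefore given as a description and not as a test. Of the 10, 7 passed the low-value filter and the other 3, S100a5, S100a16 and S100b, had at most 2 reads in any library.

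There were 2 WT and 2 CbfbKO libraries. All cells had been electroporated with Cas9 and a guide RNA. WT cells, called sgNT in the study, received a guide with no target, and CbfbKO cells, called sgCbfb, received a guide against Cbfb, at least 1 week before collection. The sources used here do not describe clonal selection, and of 3 samples collected per group 1 was not sequenced because of its RNA quality. Nothing in the labels says that the replicates came from separate cultures, so p-values measure the spread between these libraries, which may be technical. Standard errors and p-values come from limma, which pools a gene's spread between libraries with that of genes at similar levels. They are thus not a gene's own spread, which the SDs give. The question was how loss of CBFβ changes the transcriptome, CBFβ being the subunit that strengthens DNA binding by the RUNX transcription factors. Libraries were made from the 3′ ends of mRNA, so the reads of a gene do not grow with its length. Levels of different genes were therefore compared without a length correction. The levels of S100a3, S100a4 and S100a11, whose 3′ ends are shared with another gene, are less certain in such comparisons.

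The libraries held between 3189035 and 3907936 reads counted on genes, and levels are given in CPM, reads scaled to the library total, in which 1 read was worth 0.256 to 0.314 CPM. Replicate libraries varied beyond counting noise, since their chi-square divided by its degrees of freedom was 1.58 in WT and 2.15 in CbfbKO over 9520 genes. The targeted gene, Cbfb, had 295 and 285 reads in WT and 125 and 125 in CbfbKO cells, lower in both libraries labelled CbfbKO. Its log2 difference was -1.27 (standard error 0.12), and limma gave a Benjamini-Hochberg adjusted p of 1.76e-07. Reads from the 3′ end do not show the edit itself. The 11 epithelial markers examined, among them Epcam, Cdh1 and the keratins, summed to only 1.77 to 2.30 CPM per library. Krt18, Cldn3, Cldn7 and Vil1 had 0 reads throughout. The 5 mesenchymal markers, led by Vim, summed to 2479 and 2623 CPM in WT and to 2324 and 2215 CPM in CbfbKO cells. Vim, which encodes vimentin, had a log2 difference of -0.18 (standard error 0.051), and was not called (limma adjusted p = 0.0538). The other 4, Fn1, Col1a1, Cdh2 and Zeb1, had log2 differences from 0.02 to 0.41 and were not called. Leukocyte markers summed to at most 1.54 CPM, with Cd3e, Lyz2, Adgre1, Itgam and Ly6g at 0 reads, and glial markers to at most 0.768 CPM. In all, 345 of 12207 tested genes (2.83%) passed an adjusted p-value of 0.05, 192 higher (1.57%) and 153 lower (1.25%) in CbfbKO cells. The balance of higher and lower calls depended on the scaling. It was 258 higher and 196 lower under voom on library totals, 173 and 246 under voom with median scaling, 39 and 44 with quantile normalization, 176 and 188 with median centring, and 155 and 165 with ribosomal RNA genes left out of the totals. Without the low-value filter, which changes the genes tested and not the scaling, 2 were higher and 53 lower.

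S100 proteins carry a pair of EF-hands, the helix-loop-helix fold that grips calcium, and most work as dimers that open a binding groove when calcium rises. They have no enzyme activity of their own and act through the proteins they hold, such as annexins, myosin and ubiquitin ligase adaptors. Several also bind zinc or copper, and some leave the cell and act on surface receptors. Most of their genes lie in a single cluster that also holds genes of the skin barrier. S100A4 and S100A6 in particular are known from motile and mesenchymal cells and from metastatic tumours.

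In the GRCm38 annotation (GENCODE M21) 9 of the 10 members lay on chromosome 3. S100a4 (chr3:90603771-90606045, plus strand) was followed on the same strand by S100a5, starting 4.75 kb further on, and by S100a6 (chr3:90612882-90624181), starting 9.11 kb further on. S100a3 (chr3:90560578-90602702) lay on its other side. S100a1 (chr3:90511034-90514392, minus strand) and S100a13 (chr3:90514435-90524581, plus strand) started back to back. S100a11 (chr3:93520488-93526287) and S100a10 (chr3:93555080-93564643) lay at the far end of the cluster, 2917 kb and 2951 kb from S100a4. S100b stood apart on chromosome 10 (chr10:76253853-76261159).

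Since CBFβ works with the RUNX factors, the promoter windows of the members that differed between the groups are shown, with that of S100a1 for comparison. Each window runs from 250 bases before to 50 bases after the RefSeq start on GRCm38.p6, and is written on the strand of its gene. Capitals mark the RUNX core TGTGGT or TGCGGT on either strand and, in S100a4, the TATA box TATAAA. The S100a4 window is chr3:90603520-90603819 (plus strand), the S100a6 window chr3:90612644-90612943 (plus strand) and the S100a1 window chr3:90514281-90514580 (minus strand).
S100a4: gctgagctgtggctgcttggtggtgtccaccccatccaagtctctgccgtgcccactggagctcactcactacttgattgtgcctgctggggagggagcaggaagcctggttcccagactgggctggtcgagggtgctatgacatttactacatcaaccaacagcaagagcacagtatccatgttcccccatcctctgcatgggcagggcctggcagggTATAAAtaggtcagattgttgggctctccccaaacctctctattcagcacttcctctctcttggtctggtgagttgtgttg
S100a6: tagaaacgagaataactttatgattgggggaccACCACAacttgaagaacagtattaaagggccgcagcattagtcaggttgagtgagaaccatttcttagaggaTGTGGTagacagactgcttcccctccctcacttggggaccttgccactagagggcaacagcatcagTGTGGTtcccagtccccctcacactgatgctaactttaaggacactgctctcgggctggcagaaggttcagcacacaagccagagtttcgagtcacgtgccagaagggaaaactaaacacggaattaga
S100a1: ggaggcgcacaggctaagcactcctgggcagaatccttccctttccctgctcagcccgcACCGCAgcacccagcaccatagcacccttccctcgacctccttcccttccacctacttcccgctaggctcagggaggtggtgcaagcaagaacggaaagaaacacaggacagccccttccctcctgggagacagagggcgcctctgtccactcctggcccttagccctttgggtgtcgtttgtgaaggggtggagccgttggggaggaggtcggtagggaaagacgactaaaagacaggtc

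The S100a6 window held 3 copies of TGTGGT, beginning 217, 145 and 79 bases before the start, the first of them on the opposite strand. Among 32851 promoter windows of this length, 16.8% held TGTGGT at least once and 0.183% held 3 or more copies, a number chosen after the S100a6 window was read. The S100a4 window held neither RUNX core and had a TATA box 31 bases before the start, a motif present in 13.6% of all windows. The S100a1 window held 1 TGCGGT, a motif found in 6.45% of windows. RefSeq windows were found for 9 members, S100a10 being the exception. Some genes had several, and a RUNX core was present in 3 of the 13 windows, 1 each of S100a1, S100a6 and S100a16, a share close to the 22.4% of all windows. These are matches of letters and not measured binding sites.

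Across the family, S100a4 fell steeply in CbfbKO cells, S100a6 fell slightly, and S100a1, S100a10, S100a11 and S100a13 had log2 differences between -0.03 and 0.11. S100a3, S100a5, S100a16 and S100b had too few reads to show whether they changed. These 2 genes, 2 of the 7 members that passed the filter, were past the all-gene threshold, both of them lower, against 1.25% of all tested genes. In the same 2 genes both CbfbKO libraries lay below both WT libraries, while such separation in either direction was seen in 44.1% of all tested genes. The members were chosen with this contrast known, so nothing is read from these shares. In bulk RNA, fewer cells that express a gene and less RNA per cell cannot be told apart.

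**Figure D1:**
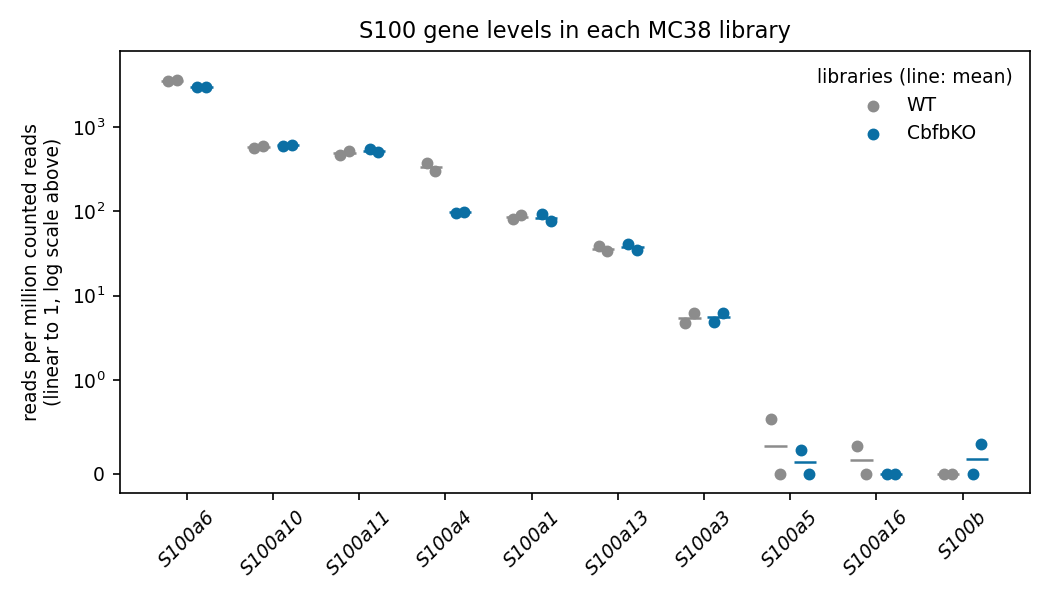
Level of each S100 gene in the 4 MC38 libraries, in CPM (linear up to 1, log scale above). Points are libraries, grey for WT and blue for CbfbKO, and short lines are group means. S100a4 drops from a mean of 334 to 97.0 CPM, next to the level of S100a1, while the order of the 7 measurable genes stays the same.

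S100a4 encodes a partner of non-muscle myosin IIA that loosens its filaments and is linked to cell migration. The libraries held 1261 and 991 S100a4 reads in WT and 373 and 314 in CbfbKO cells. Scaled to library size these were 371 and 297 CPM in WT against 95.4 and 98.5 CPM in CbfbKO cells. The groups were far apart, although the WT libraries differed from each other more than the CbfbKO libraries did. The deposited log2 level was 8.38 ± 0.23 in WT and 6.61 ± 0.03 in CbfbKO cells (SD, n = 2 each). The log2 difference was -1.77 (standard error 0.089), which leaves 29.3% of the WT level. Among the 153 genes called lower, 19 had a larger fall. Leaving out 1 library at a time kept the log2 difference between -1.93 and -1.61. The call was lost without CbfbKO replicate 1 or without CbfbKO replicate 2, where 0 genes of the whole table were called by limma (1104 and 1169 at an unadjusted p under 0.05).

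The annotation also holds Gm42674, a transcript that runs from the end of S100a3 into S100a4. Of the stretches of 75 bases, the length of a read, in the last 300 bases of the S100a4 coding transcripts, 52.1% also occur in Gm42674. Whether the annotation used for counting held Gm42674 is not given in the sources used here, and no value of it was used, so how such reads were counted was not tested. S100a3 shares 13.8% of its 3′ stretches with the same transcript. No such stretch was shared between any 2 of the 10 members.

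S100a6, or calcyclin, binds the calcyclin-binding protein and annexins and was the most abundant member. It had 11947 and 11908 reads in WT and 11715 and 9595 in CbfbKO cells, or 3518 and 3570 CPM against 2998 and 3009 CPM. Replicates lay close together and the groups did not overlap. The log2 difference was small, -0.24 (standard error 0.047), leaving 84.7% of the WT level. In log2 terms it was nearly the smallest fall among the called genes, with 1 of the 153 genes called lower falling less. Being so abundant, S100a6 nevertheless lost more CPM than S100a4, with a mean difference of -541 CPM against -237 CPM. The call of S100a6 was lost when any 1 of the 4 libraries was left out, although its log2 difference then stayed between -0.25 and -0.23. With either CbfbKO library left out every gene lost its call, so those losses are not particular to S100a6.

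S100a10 does not bind calcium and forms a tetramer with annexin A2 at the plasma membrane. It was at 567 and 601 CPM in WT and at 593 and 619 CPM in CbfbKO cells. These ranges overlapped, and the log2 difference was 0.05 (standard error 0.059). S100a11, a partner of annexin A1, was at 463 and 513 CPM in WT and at 552 and 500 CPM in CbfbKO cells, again with overlap. Its log2 difference was 0.11 (standard error 0.066). Of its 3′ stretches 12.4% also occur in the pseudogene Gm12854, which had between 0 and 4 reads per library.

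S100a1, best known from calcium handling in heart muscle, was at 81.9 and 89.7 CPM in WT and at 92.4 and 76.2 CPM in CbfbKO cells. The CbfbKO libraries lay on either side of the WT libraries, with a log2 difference of -0.03 (standard error 0.11). S100a13, which takes part in the release of fibroblast growth factor 1 from cells, was at 38.3 and 33.6 CPM in WT and at 40.7 and 34.8 CPM in CbfbKO cells. Its log2 difference was 0.07 (standard error 0.14). The shared start region of this back-to-back pair thus went with no separation of the groups in either gene.

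S100a3, a cysteine-rich member known from hair follicles, was low, with 16 and 21 reads in WT and 19 and 20 in CbfbKO cells. Its log2 difference was 0.02 with a standard error of 0.33, so at this depth only a large change would have been detectable. S100a5, between S100a4 and S100a6, had 2 and 0 reads in WT and 1 and 0 in CbfbKO cells. S100a16 had 1 read in WT replicate 1 and 0 in the other libraries. S100b, a marker of glial cells, had 1 read in CbfbKO replicate 2 and 0 elsewhere. A count of 0 over a group allows a level of up to 0.446 CPM in WT and 0.423 CPM in CbfbKO cells, for counting error alone, so no difference can be read in these 3 genes.

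**Figure D2:**
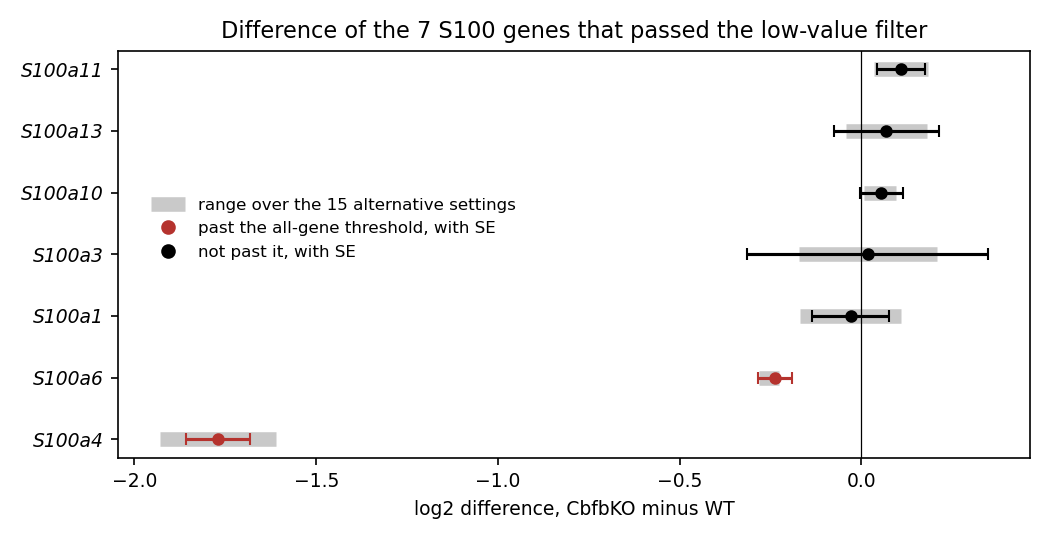
Log2 difference (CbfbKO minus WT) of the 7 S100 genes that passed the filter, with standard errors, on the deposited log2 CPM scale. Red points passed the all-gene threshold, and grey bars span the values under 15 alternative settings. S100a4 lies near -1.77 and S100a6 near -0.24, and the other 5 lie between -0.03 and 0.11.

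The 10 members together took 0.504% and 0.511% of the reads in WT and 0.438% and 0.434% in CbfbKO cells. Their summed level went from 5077 ± 47 to 4360 ± 23 CPM (SD, n = 2 each), or 85.9% of the WT level. The 8 members other than S100a4 and S100a6 summed to 1199 ± 62 CPM in WT and 1260 ± 33 CPM in CbfbKO cells, so the lower total came from these 2 genes. S100a6 made up 68.5% to 69.9% of the family's reads in every library. The share of S100a4 was 7.36% and 5.81% in WT and 2.18% and 2.27% in CbfbKO cells.

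Ratios within a library do not depend on how libraries are scaled. There were 9.47 and 12.0 S100a6 reads for each S100a4 read in WT and 31.4 and 30.6 in CbfbKO cells. S100a10 reads per S100a4 read were 1.53 and 2.02 in WT and 6.22 and 6.29 in CbfbKO cells. Both ratios separated the groups. Both divide by S100a4, the gene that drew attention to the family, so they restate its difference and add no support.

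In either group the order of the levels was S100a6, S100a10, S100a11, S100a4, S100a1, S100a13 and S100a3, and no neighbours in this order overlapped within a group. The places of S100a3, S100a4 and S100a11 are less certain, since their 3′ ends are shared with another gene. The gap below S100a4 narrowed, from a mean of 334 against 85.8 CPM for S100a1 in WT to 97.0 against 84.3 CPM in CbfbKO cells. By rank among all listed genes, S100a6 moved from 9 to 14 and S100a4 from 453 to 1898. S100a5, S100a16 and S100b overlapped at the bottom.

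The other 7 S100 genes whose values were used here were near or at 0. S100a8, which with S100a9 forms the zinc-binding calprotectin of neutrophils, had 6 and 2 reads in WT and 1 and 2 in CbfbKO cells, and S100a9 had 0. S100a2 had between 1 and 3 reads per library, S100a14 had 2 reads in CbfbKO replicate 2 and 0 elsewhere, and S100a7a had 1 read in WT replicate 1 and 0 elsewhere. S100g and S100z had 0 reads, as had Flg, Hrnr, Rptn and Crnn, which encode large skin proteins with an S100 domain, while Tchh had at most 2. S100a2 and S100a8 passed the filter and were not called.

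The neighbours of the cluster were examined next, taking the 61 other protein-coding genes inside it and the 15 on either side. Values of 80 of these 91 genes were used and 16 passed the filter, and 0 were called by limma (3 at an unadjusted p under 0.05), against 2.83% of all tested genes. Voom on the recovered reads also called 0. Of the 16, 13 lay on the S100a1 side of the cluster and 1 on the other side. The remaining 2 were all that passed of the 61 inside it, with at most 4 reads in any library. With so few tested genes, 0 calls do not show that the region was unchanged. The log2 differences of the 16 had a median of 0.16, against 0.04 over all tested genes. The well-covered genes beside S100a1 were Chtop and Ilf2, which encode nuclear RNA-binding proteins. Chtop had 643 and 580 reads in WT and 701 and 593 in CbfbKO cells, a log2 difference of 0.01 (standard error 0.077, limma adjusted p = 0.977). Ilf2 had a log2 difference of -0.05 (standard error 0.10, limma adjusted p = 0.877). Crtc2, a coactivator of CREB, had 13 and 38 reads in WT and 5 and 11 in CbfbKO cells (log2 difference -1.41 with standard error 0.45, limma adjusted p = 0.0993). Only with the replicate number as a block, or without WT replicate 1, was Crtc2 called. Dennd4b, next to Crtc2, had 3 and 2 reads in WT and 10 and 10 in CbfbKO cells (log2 difference 1.38 with standard error 0.45, limma adjusted p = 0.114).

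**Figure D3:**
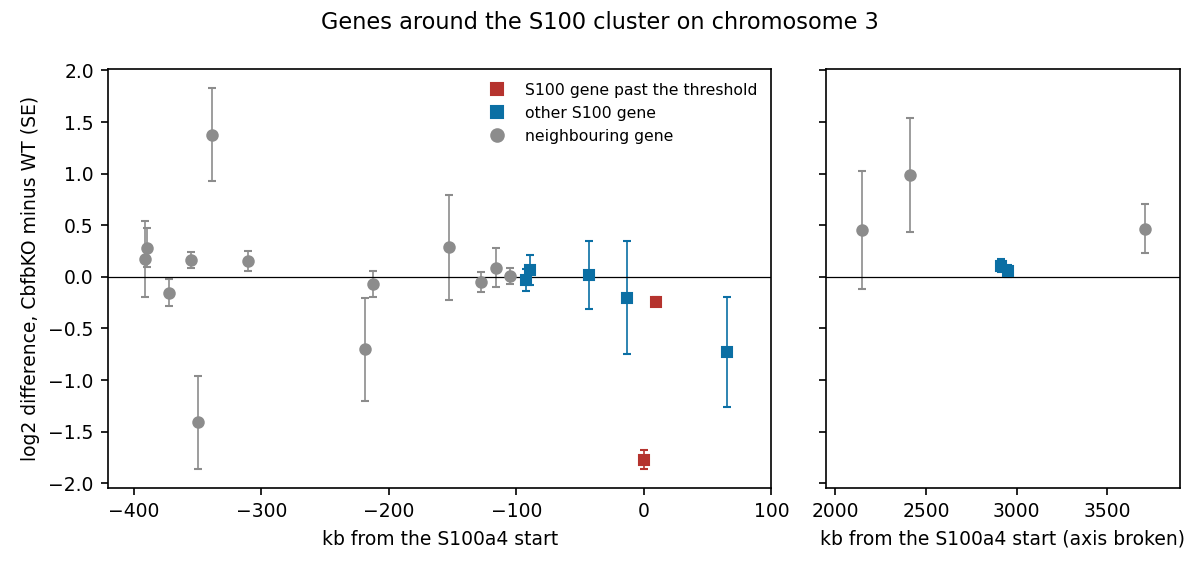
Log2 difference (CbfbKO minus WT, with standard errors) of the tested genes in and around the chromosome 3 cluster, against the distance in kb of each gene's first base from that of S100a4. The axis is broken between the near and the far part of the cluster. S100a4 at -1.77 and S100a6 at -0.24 (red squares) are the 2 genes past the threshold, and S100a3 lies at 0.02.

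Proteins known to bind S100 proteins, or to act as their receptors, were listed as 39 genes. Of these 28 passed the filter, and 2 of the 28 fell in CbfbKO cells and 0 rose, against 1.25% lower and 1.57% higher of all tested genes. Tgm2, a transglutaminase gene with 41 and 54 reads in WT and 94 and 73 in CbfbKO cells, just missed the threshold (limma adjusted p = 0.0545), and was called higher by voom on library totals, with a minimum of 5 CPM and with the replicate block. Voom with median scaling called 3 partner genes lower and 0 higher. The median log2 difference of the list was 0.02, against 0.04 over all tested genes. Anxa1 encodes annexin A1, a membrane-binding partner of S100A11. It was at 243 and 265 CPM in WT and fell to 138 and 152 CPM in CbfbKO cells (log2 difference -0.80 with standard error 0.078, limma adjusted p = 2.04e-07). Both CbfbKO libraries lay well below both WT libraries, while S100a11 itself was not lower. Ppfibp1 encodes liprin-β1, a scaffold protein that binds S100A4. It was at 236 and 236 CPM in WT and fell to 182 and 200 CPM (log2 difference -0.31 with standard error 0.074, limma adjusted p = 0.0193). Its call was lost with quantile normalization (-0.31), and when any 1 library was left out, with log2 differences from -0.37 to -0.24. That of Anxa1 was lost without either CbfbKO library, with log2 differences from -0.87 to -0.74. Every gene lost its call with either CbfbKO library left out.

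The best-known partners of the 2 lower S100 genes were not called. Myh9, the myosin heavy chain that S100A4 binds, was at 402 and 399 CPM in WT and at 452 and 452 CPM in CbfbKO cells (log2 difference 0.18 with standard error 0.061, limma adjusted p = 0.14). Cacybp, the calcyclin-binding protein gene, had a log2 difference of -0.11 (standard error 0.065, limma adjusted p = 0.495). Anxa2, the partner of S100A10, was at 725 to 772 CPM in all libraries (log2 difference -0.04 with standard error 0.056, limma adjusted p = 0.82). Ager, which encodes the receptor RAGE, had between 3 and 9 reads per library, too few to compare. Tlr4, another receptor, had 29 and 35 reads in WT and 24 and 17 in CbfbKO cells (adjusted p = 0.272 from limma).

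**Figure D4:**
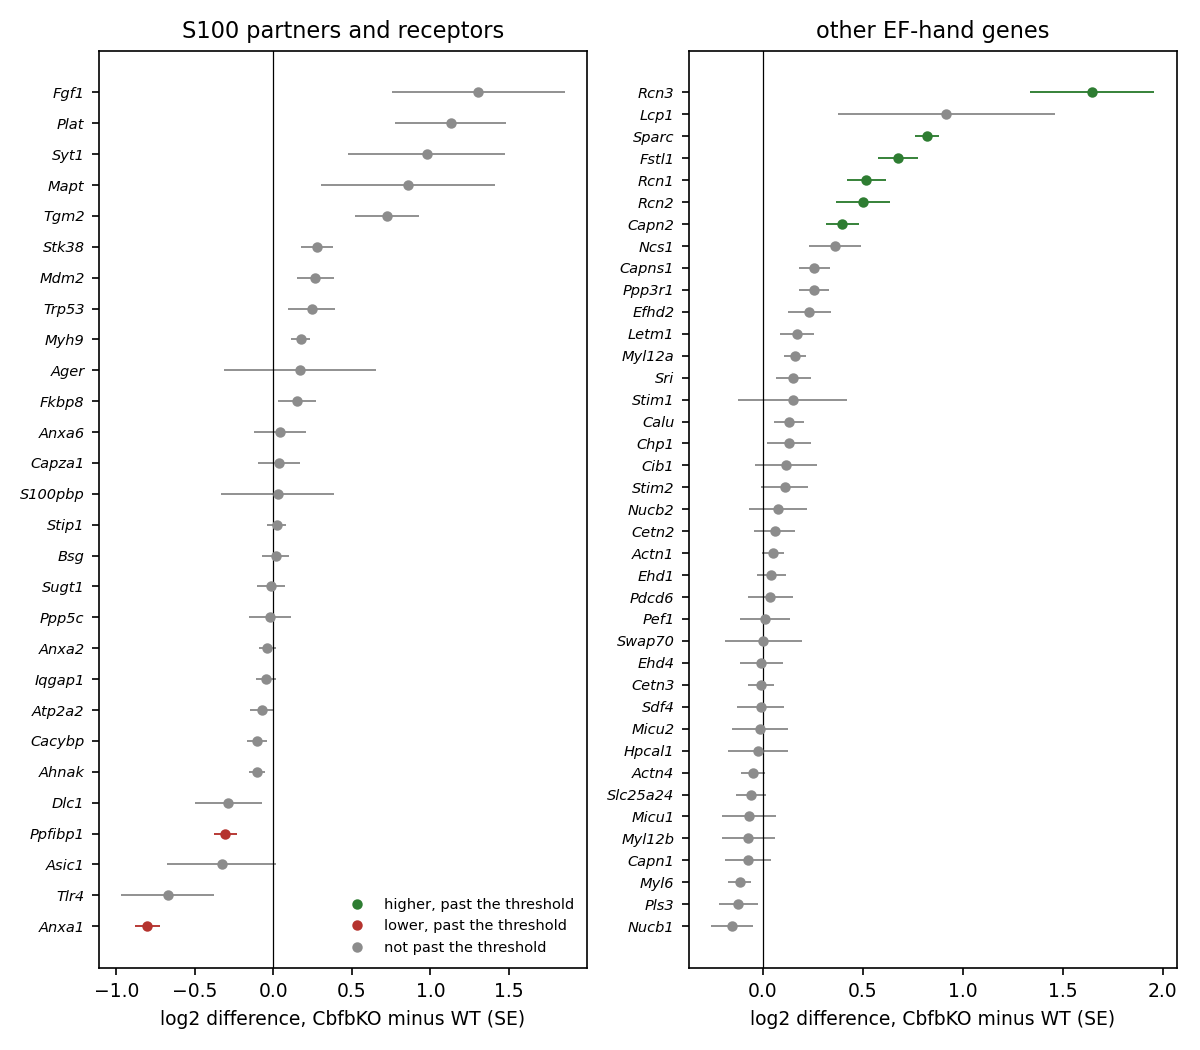
Log2 differences (CbfbKO minus WT, with standard errors) of 28 tested S100 partners and receptors and of other tested EF-hand genes, leaving out a few that are not reported singly. Green points are higher and red points lower past the all-gene threshold, and grey points are not past it. Anxa1 at -0.80 and Ppfibp1 at -0.31 are the red points on the left, and the 6 green points on the right run from 0.40 (Capn2) to 1.65 (Rcn3), while the point of Fgf1, with 0 reads in WT, depends on the prior count.

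As a comparison with other calcium sensors and buffers, 47 further EF-hand genes were listed, of which 42 passed the filter. In CbfbKO cells 6 of them rose and 0 fell, against 1.57% higher and 1.25% lower of all tested genes, and the median log2 difference was 0.09. Like the other lists, this one was drawn up with earlier results of these data known, so its count is a description. The difference between this list and the S100 genes was not tested. Rcn1, Rcn2 and Rcn3 encode reticulocalbins, calcium-binding proteins of the secretory pathway. Their log2 differences were 0.52 (standard error 0.097), 0.50 (standard error 0.14) and 1.65 (standard error 0.31), with adjusted p-values from limma of 0.00194, 0.0444 and 0.00201. Rcn3 rested on few reads, 12 and 10 in WT against 44 and 37 in CbfbKO cells. Rcn2 was only just past the threshold and lost its call under 10 of 15 alternatives, median centring among them (adjusted p = 0.0533 from limma, range over the alternatives up to 0.843). Capn2, a calpain protease subunit, rose from 120 and 116 CPM to 160 and 152 CPM (adjusted p = 0.00554 from limma). Sparc and Fstl1, secreted proteins with EF-hand domains, also rose, by 0.82 and 0.68 on the log2 scale (adjusted p = 1.56e-09 and 8.95e-05 from limma). The study displayed these last genes, and S100a4, as changed in these same libraries, so they are not independent evidence. Left out singly, WT replicate 1 cost Rcn1 and Rcn2 their calls, with log2 differences of 0.41 and 0.33, WT replicate 2 cost Capn2 its call, at 0.37, and either CbfbKO library cost all 6 theirs. The loss with either CbfbKO library left out was shared by every gene. With quantile normalization Sparc alone of the 6 was still called.

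The 5 tested genes closest to S100a4 in pattern, by the Euclidean distance between mean-centred log2 values over the 4 libraries, were Col8a1, A130040M12Rik, Fgf7, Casp4 and Zbtb11os1. Their distances ran from 0.272 to 0.369 on the log2 scale. Col8a1, a chain of type VIII collagen, went from 146 and 141 CPM to 37.6 and 35.7 CPM. Fgf7, the keratinocyte growth factor, went from 120 and 115 CPM to 35.1 and 28.8 CPM. Casp4 encodes an inflammatory caspase and went from 24.7 and 21.3 CPM to 8.19 and 7.21 CPM, while Zbtb11os1, an antisense gene, had 12 reads or fewer per library and was not called. These genes were chosen for their likeness over 4 libraries, so their values are a description. The RUNX genes went the other way. Runx1 rose by 0.65 and Runx2 by 0.79 on the log2 scale (adjusted p = 6.84e-05 and 0.0123 from limma), and Runx3 had 0 reads in every library. The call of Runx2 was lost when any 1 library was left out, with log2 differences from 0.77 to 0.82, and with quantile normalization (0.75). That of Runx1 was lost without either CbfbKO library, as was every other call. Its log2 differences ran from 0.63 to 0.68 over the 4 libraries left out in turn.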

How the data were processed

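Total RNA of 2 WT and 2 CbfbKO libraries of MC38 cells was profiled by 3′ mRNA sequencing with single-end reads of 75 bases. The authors used cutadapt 1.9 for trimming, HISAT2 2.1.0 for alignment to mm10 and featureCounts for counting per gene (2.0.1 in the submitters' processing notes, while the study's methods name an earlier version) and deposited log2 CPM values, scaled to library totals with a prior count near 2. The annotation release, the strand setting and the treatment of reads matching several genes are not given in the sources used here, and could change values of overlapping genes and paralogs. Low values step by whole reads, so reads were recovered (at least 99.99% of values above the floor within 0.1 of a whole number). CPM of single libraries come from these reads, and differences from the deposited values.

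limma 3.58.1 in R 4.3.3 (mean-variance trend, two-sided, Benjamini-Hochberg adjustment, threshold 0.05) was fitted over the 12207 genes that reached 0 on the log2 CPM scale in 2 libraries or more, without a block. The study names voom with limma, which was run on the recovered reads as an alternative. An exact permutation test of 2 against 2 libraries cannot reach the threshold, so none was used. Figures used matplotlib 3.10.9 in Python 3.11.15.

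The members and lists were chosen with earlier results of these data known. Named are all members and other S100 genes, the called genes of each list (at most 6 per list), the best-known partners, and the 5 genes closest to S100a4. The well-covered neighbours Chtop and Ilf2, Crtc2, Dennd4b, Slc39a1, Tgm2, Tlr4, Vim and Syt1 were named after their values were seen. Promoter windows are from RefSeq (GRCm38.p6) and positions from GENCODE M21. A few listed genes are counted but not reported singly. Other cell lines of the study were not analysed here.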

Additional observations from a re-analysis of the deposited data

How the results depend on the processing

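Under 15 alternatives the log2 differences of Cbfb, S100a4, S100a6, S100a10 and S100a11 kept their direction. Direction is kept by construction without the filter, with a minimum of 5 CPM, without the trend and with the replicate block. The cause of the changes below was not tested. Against 345 genes called, there were 55 without the low-value filter, 83 with quantile normalization, 0 without the mean-variance trend (1461 at an unadjusted p under 0.05) and 535 with the replicate block. Of the S100 members, 2 were called in the reported test, 0 without the filter and 0 without the trend, and Cbfb was not called either (limma adjusted p 0.29 and 0.115). These settings leave a log2 difference as it is by construction (-1.77 for S100a4, -0.24 for S100a6 and -1.27 for Cbfb). In the settings with no filter, quantile normalization and no trend, 0, 1 and 0 partner genes and 0, 1 and 0 other EF-hand genes were called. The replicate block called 1 chromosome 3 neighbour, Crtc2, and otherwise changed no list's count by over 1.5 times. Deviations of libraries with the same number were uncorrelated (-0.0042 across genes), so the block rests on a shared number alone. With each library left out, 0 to 201 genes, 0 to 1 members, 0 to 1 neighbours, 0 to 1 partners and 0 to 5 EF-hand genes were called. Log2 differences then ran from -1.41 to -1.12 for Cbfb, -1.93 to -1.61 for S100a4, -0.25 to -0.23 for S100a6, 0.013 to 0.096 for S100a10, 0.034 to 0.18 for S100a11, -0.17 to 0.11 for S100a1, -0.17 to 0.21 for S100a3 and -0.042 to 0.18 for S100a13. S100a3 also turned negative with quantile normalization (-0.06), median centring (-0.005), ribosomal RNA genes left out of the totals (-0.003) and voom with median scaling (-0.045). Depth limits S100a3, S100a5, S100a16 and S100b most.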

Other observations

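Genes that work with S100A13 in the release of fibroblast growth factor 1 were barely detected. Fgf1 had 0 reads in either WT library and 3 in either CbfbKO library (adjusted p = 0.249 from limma). Syt1, the synaptotagmin of that release complex, had 1 and 2 reads in WT and 5 and 5 in CbfbKO cells (adjusted p = 0.371 from limma). Neither difference passed the threshold, Fgf1 entered the test only through its CbfbKO reads, and Syt1 was named after its values were seen, so no change can be read in either gene.

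Slc39a1, which encodes the zinc importer ZIP1, had the most WT reads among the 16 tested neighbours of the chromosome 3 cluster that are not S100 genes. It had 717 and 677 reads in WT and 952 and 703 in CbfbKO cells. Its log2 difference was 0.16 (standard error 0.075, limma adjusted p = 0.301).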
